A study of Mus musculus with 10 samples.

Results

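The replication-dependent histone genes were examined in RNA-seq of the mouse cochlea. They were taken as every protein-coding gene whose symbol starts with Hist1h, Hist2h, Hist3h or Hist4h, which gave 67 of the 54532 genes counted. Of these, 54 lay in the Hist1 cluster (chr13:21715763-23934851, mm10), 10 in Hist2 (chr3:96219865-96270132), 2 in Hist3 (chr11:58948920-58956830), and 1, Hist4h4, stood alone (chr6:136801553-136804415). By the class of protein they encode, 6 were linker histone H1 genes, 18 H2A, 18 H2B, 12 H3, and 13 H4. The rule used names only and no measured value, but it was set with earlier results of these data known.

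All 10 mice carried the mtKeima reporter, a mitochondrial fluorescent protein that responds to pH, and were 12 months old when the cochlea was taken. The 5 NR-treated mice had received nicotinamide riboside (NR), a precursor of NAD+, in drinking water at 7 mg/ml (24 mM), begun at 2 months of age and kept up for 10 months. The 5 non-treated mice, labelled Vehicle, received regular water. The labels give all mice as female while the methods for the RNA describe males. Each library was made from the whole cochlea of 1 mouse, and the total count lay between 17060379 and 24419230 reads.

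Replication-dependent histone genes supply the histones that package newly copied DNA, and they are switched on mainly in S phase. Their mRNAs differ from other mRNAs in that most end in a short stem-loop bound by SLBP rather than in a poly(A) tail, and most lack introns. Some members also make polyadenylated transcripts that run past the stem-loop, and such transcripts are known from differentiated and resting cells. Replacement histones, encoded by ordinary genes elsewhere, are made throughout the cell cycle. The libraries were prepared by poly(A) selection, so a read here reports chiefly on polyadenylated histone RNA, and the stem-loop form was not measured separately.

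The stem-loop was searched in the annotated transcripts as GGNNNNTNTNNNNNCC whose first 6 bases pair with the last 6, on the transcript's own strand. It was present in 46 of the 67 genes, against 0.726% of 21901 protein-coding genes, a share that includes these 46. A match describes the annotated sequence only. For the members that carry the results below, the element is shown in capitals within 30 bases, written 5′ to 3′ in DNA letters from the GENCODE transcripts of GRCm38.
Hist1h1c: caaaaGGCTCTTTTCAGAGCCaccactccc
Hist3h2ba: ccaaaGGCTCTTTTCAGAGCCaccttccaa
Hist3h2a: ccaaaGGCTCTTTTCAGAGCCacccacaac
Hist1h2ac: ccaaaGGCTCTTTTCAGAGCCcccactttt
Hist1h1e: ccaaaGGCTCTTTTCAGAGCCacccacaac
Hist2h3c2: acaaaGGCTCTTTTCAGAGCCaccacagct
Hist1h4i: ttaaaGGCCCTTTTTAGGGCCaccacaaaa
Hist2h4: ctaacGGCCCTTTTTAGGGCCaaccacagt
Hist1h4h: ccaaaGGCCCTTTTCAGGGCCgcccacatt

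The first 6 of these share 1 element, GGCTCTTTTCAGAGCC, which 26 members carried, 3 of them H1, 10 H2A, 8 H2B, and 5 H3 genes. The element of Hist1h4h, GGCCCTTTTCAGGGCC, was found in 7 members, all of them H4 genes. Hist1h4i and Hist2h4 shared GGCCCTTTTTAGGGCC, which no other member had. The element of Hist1h1c lies at chr13:23739512-23739527, 24 bases after the stop codon, and its annotated transcript goes on for 840 bases more. That of Hist1h4i lies at chr13:22040966-22040981 on the minus strand, with 330 bases after it. That of Hist1h4h lies at chr13:23531458-23531473, with 46 bases after it.

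Reads of the class were few and concentrated in a handful of genes. Across the 10 libraries the 67 genes held 50887 reads, from 0.0164% to 0.0328% of a library's counts. Hist1h1c, which encodes a linker histone, held 48.0% of these reads alone, and the 6 most abundant members held 87.5%. The others of the 6 were Hist1h2bc, Hist3h2ba, Hist1h4i, Hist3h2a, and Hist2h2be, each above 10 CPM (read counts scaled to the usual common library size after TMM normalization). Another 5 members lay between 1 and 10 CPM, and the remaining 56 lay under 1 CPM. H1 genes took 48.7% of the reads, H2B genes 31.1%, H4 genes 12.3%, H2A genes 6.37%, and H3 genes 1.45%.

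Per kilobase of gene length, Hist1h1c was at 71.1 CPM and Hist3h2ba at 30.8. Hist1h2bc followed at 27.4, Hist1h4i at 24.0, and Hist1h4h at 14.8 CPM per kilobase. On the same scale the replacement genes H1f0, a linker histone of differentiated cells, and H3f3b, which encodes H3.3, were at 107 and 146 CPM per kilobase.

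Detection went with the annotated 3′ end. In 23 members the transcript ran over 100 bases past the stem-loop, and these held 75.4% of the reads with a median level of 0.641 CPM. In another 23 the transcript ended within 100 bases of it, and these held 3.997% of the reads, most of them from Hist1h4h, with a median of 0.0554 CPM. These sets also differed in the median share of 100-base windows found in no other gene, 84.9% against 47.6%. The levels were not scaled by transcript length, and Hist1h1c alone held 48.0% of all the reads. The 3′ end, unique sequence and length cannot be told apart here. The 21 members without the element held 20.6%, chiefly Hist1h2bc and Hist2h2be. A poly(A) signal (AATAAA or ATTAAA in the last 40 bases of a transcript) was found in 17 members, which held 81.7% of the reads, and in 76.0% of all protein-coding genes. Annotated 3′ ends rest in part on sequenced polyadenylated RNA, so they are not independent of detection.

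**Figure D1:**
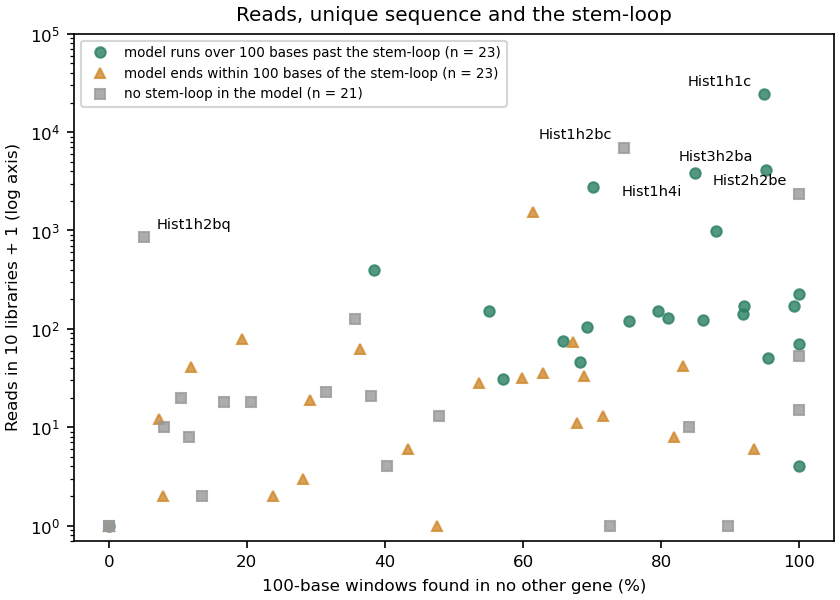
Reads of each of the 67 genes summed over 10 libraries (log axis, 1 read added) against the share of its 100-base transcript windows found in no other annotated gene, with symbols for the annotated 3′ end. Genes whose model runs over 100 bases past the stem-loop (circles) lie mostly in the upper right, and 5 of the genes without a read lie at 0% unique windows.

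Sequence shared among members also limited what could be counted. With the default settings of featureCounts, a read that maps to several places or lies over 2 genes is not counted. The median share of 100-base windows found in no other gene was 62.9% over the 67 members, 81.0% over the 21 tested, and 45.5% over the 46 left out of the test. For 5 members of Hist2 (Hist2h2aa1, Hist2h2aa2, Hist2h3c1, Hist2h3b, and Hist2h2bb) no window was unique, and all 5 had 0 reads. Exons of other genes also covered 100% of the exon bases of each of these 5. Hist1h2bq had 858 reads with 5.16% of its windows unique, so its value is uncertain. Exons of another gene overlapped 24 members, among them all 18 H2A genes.

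Of the 67 genes, 8 had 0 reads in every library, a count that allows up to 0.0138 CPM over the 10 libraries together, for counting error only. That limit does not apply to the 5 members of Hist2 without a unique window. By the counting rules and this annotation their reads could not be counted at any level. At least 1 read was found for 59 members, and 32 had a read in all 10 libraries. The expression filter kept 21 members, which hold all but 1.89% of the reads.

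The class as a whole stood lower in NR-treated mice. The summed level of the 67 genes was 171, 216, 221, 203, and 162 CPM in NR-treated mice 1 to 5, and 266, 248, 270.5, 332, and 222 CPM in non-treated mice 1 to 5. Every NR-treated mouse lay below every non-treated mouse, although NR 3 and Vehicle 5, the nearest, were almost level. The means were 195 ± 26.8 and 268 ± 40.6 CPM (SD, n = 5 each), a difference of -27.3%. Without Hist1h1c the difference was -25.8%, and the groups again did not overlap. In bulk tissue, fewer cells that express these genes and less RNA per cell cannot be told apart.

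All 21 tested members had a negative log2 fold change, NR-treated over non-treated, with a median of -0.48, while the median over all 18329 tested genes was -0.01 and 52.9% of them were lower. A member of low level can pass the filter through the non-treated group alone. In Hist1h1e every non-treated mouse was at 0.464 CPM or more, and the NR-treated median was 0.349 CPM. Without the filter, 45 of the 59 members with a read were lower and 14 higher, where 48.7% of all genes were lower. At the study's threshold, an unadjusted p of 0.05 or less, 9 of the 21 members were lower and 0 higher by edgeR's quasi-likelihood test. Over all tested genes 4.88% were lower and 4.83% higher at that threshold. By the DESeq2 Wald test, which took in the 59 members with a read, 11 were lower and 0 higher, against 3.08% and 3.50% of all genes. These were the same 9 members and 2 that the filter had left out, Hist1h2bp and Hist1h3f. No member, and no gene of the 18329, passed an adjusted p of 0.05 in edgeR, where the smallest was 0.224. In DESeq2, 1 member, Hist1h4i, did (adjusted p = 0.00879), among 0.308% of all genes. The members were measured in the same libraries and are not independent of each other, and the count carries no p-value of its own.

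**Figure D2:**
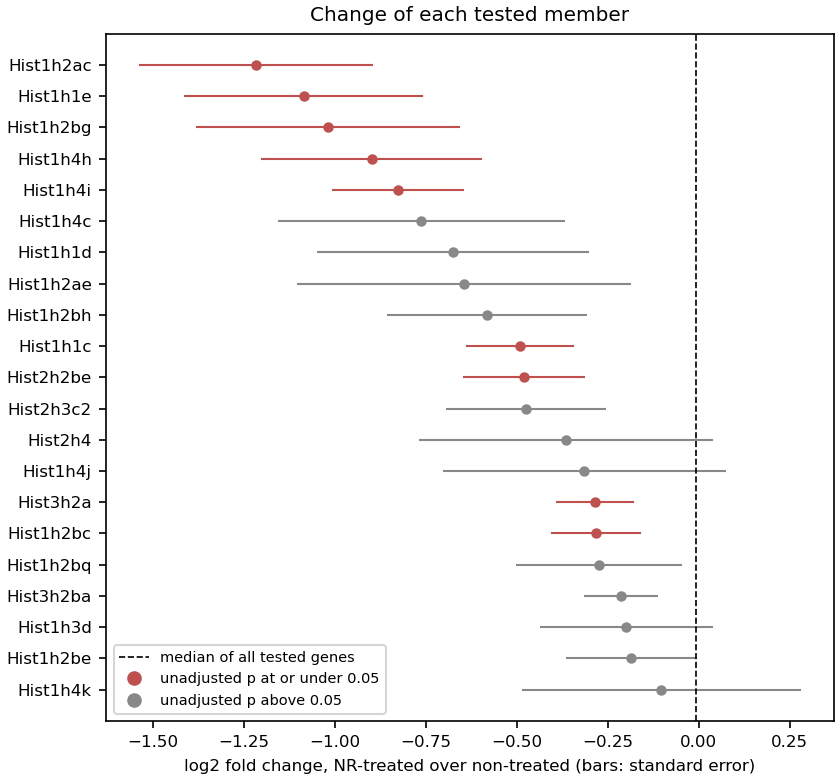
Fitted log2 fold change of each of the 21 tested members, NR-treated over non-treated (points, with bars for 1 standard error), with the median of all tested genes as a dashed line. Every point lies below 0, from -1.22 for Hist1h2ac to -0.10 for Hist1h4k, and the 9 red points have an unadjusted p of 0.05 or less.

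Each of the 21 tested members was highest in a non-treated mouse, and 19 were lowest in an NR-treated mouse. The most extreme library was Vehicle 4, which gave the highest value of 14 of the 21. NR 5 gave the lowest value of 7.

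Linker histone genes, whose proteins bind the DNA between nucleosomes, were led by Hist1h1c (chr13:23738808-23740367). Its level was 76.4, 111, 102, 101, and 69.6 CPM in NR-treated mice 1 to 5, and 132, 123, 131, 162, and 100.002 CPM in non-treated mice 1 to 5. Non-treated mouse 5 lay within the NR-treated range and the other 4 lay above it. The log2 fold change was -0.49 ± 0.15 (SE), lower at the threshold (adjusted p = 0.423 in edgeR), and a two-sided exact permutation test of log2 CPM over the 10 mice gave p = 0.0317. Hist1h1e, at 0.347 ± 0.139 CPM in NR-treated and 0.730 ± 0.200 CPM in non-treated mice (SD, n = 5 each), had a log2 fold change of -1.09 ± 0.33 (adjusted p = 0.423 in edgeR, exact permutation p = 0.0159). The third tested H1 gene, Hist1h1d, did not pass the threshold. The class sum was 93.3 ± 18.1 against 132 ± 22.7 CPM, and the groups overlapped.

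H2A and H2B genes encode the partners of the H2A–H2B dimer. Of the tested genes, 2 of 3 H2A and 3 of 7 H2B members were lower at the threshold, against 4.88% of all tested genes. Hist1h2ac (chr13:23681467-23683948, minus strand) was at 0.529, 0.581, 0.605, 0.174, and 0.405 CPM in NR-treated mice 1 to 5, and at 1.04, 1.35, 0.930, 1.37, and 0.696 CPM in non-treated mice 1 to 5. It is 1 of the 2 tested members whose groups did not overlap, where 0.867% of all tested genes were separated in that direction and 0.775%, but 0 members, in the other. Its log2 fold change was -1.22 ± 0.32, the most negative of the 21 (adjusted p = 0.408 in edgeR, exact permutation p = 0.00794, the smallest that 5 against 5 mice can give), and it rests on 169 reads in all.

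Hist1h2bc, the second most abundant member, was at 28.3, 26.3, 35.2, 27.4, and 25.6 CPM in NR-treated mice 1 to 5, and at 32.2, 28.8, 37.9, 43.5, and 31.3 CPM in non-treated mice 1 to 5. The groups overlapped, through NR 3. Its log2 fold change was -0.28 ± 0.12 (adjusted p = 0.503 in edgeR, exact permutation p = 0.0794), and the edgeR call was lost in 6 of the 10 fits that left out 1 mouse. Hist1h2bc and Hist1h2ac start 251 bases apart and are read in opposite directions, 1 of 13 such pairs within 1000 bases among the members, 12 of them an H2A with an H2B gene. The pair stood at 31.7 and 0.767 CPM. The annotated Hist1h2bc transcript is spliced, with 1156 bases over chr13:23684199-23692908, and holds no stem-loop.

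In the smaller clusters, Hist2h2be (chr3:96221119-96223738) was at 7.32, 12.1, 8.21, 10.1, and 7.17 CPM in NR-treated mice 1 to 5, and at 15.6, 10.4, 12.2, 11.1, and 13.5 CPM in non-treated mice 1 to 5. Only NR 2 lay within the non-treated range. Its log2 fold change was -0.48 ± 0.17 (adjusted p = 0.453 in edgeR, exact permutation p = 0.0317). Hist3h2a (chr11:58954685-58956830) was at 10.4, 12.0, 13.1, 12.3, and 9.54 CPM against 16.01, 13.5, 12.6, 13.9, and 13.9 CPM in the same order, with a log2 fold change of -0.29 ± 0.11 (adjusted p = 0.473 in edgeR, exact permutation p = 0.0159). That call was lost without NR 1, NR 5, or Vehicle 1.

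Its neighbour Hist3h2ba, the most abundant gene of Hist3, was at 17.5 ± 1.31 CPM in NR-treated and 20.3 ± 2.57 CPM in non-treated mice, with a log2 fold change of -0.21 ± 0.10 (adjusted p = 0.526 in edgeR, exact permutation p = 0.0794), just outside the threshold. Of its non-treated values, 4 of 5 lay between 20.5 and 21.8 CPM, and Vehicle 4 was at 15.9. Hist1h2bg was at 0.452 ± 0.164 against 0.906 ± 0.390 CPM, with a log2 fold change of -1.02 ± 0.36 (adjusted p = 0.458 in edgeR, exact permutation p = 0.0397). Without Vehicle 4 this call was lost.

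H3 genes gave the fewest reads. Only 2 of 12 were tested and neither passed the threshold. The most abundant, Hist2h3c2, was at 1.44, 1.79, 1.90, 1.18, and 1.10 CPM in NR-treated mice 1 to 5, and at 2.18, 1.70, 2.06, 2.77, and 1.62 CPM in non-treated mice 1 to 5. Its log2 fold change was -0.48 ± 0.22 (adjusted p = 0.518 in edgeR, exact permutation p = 0.0556), and 38.4% of its windows were unique.

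By summed level, H4 was the class with the most negative log2 ratio, and the only 1 of the 5 whose summed level did not overlap between groups. The sum was 18.3, 21.6, 25.6, 20.4, and 17.9 CPM in NR-treated mice 1 to 5, and 28.4, 33.0, 34.3, 57.9, and 26.7 CPM in non-treated mice 1 to 5. The log2 ratio of the means was -0.80, against -0.50 for H1, -0.34 for H2A, -0.30 for H2B, and -0.51 for H3. Vehicle 4 stood well above the other non-treated mice, and without it the ratio for H4 was -0.56. By the median log2 fold change of the tested members, H1 (-0.68) and H2A (-0.65) lay below H4 (-0.56). Differences between the classes were not tested.

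**Figure D3:**
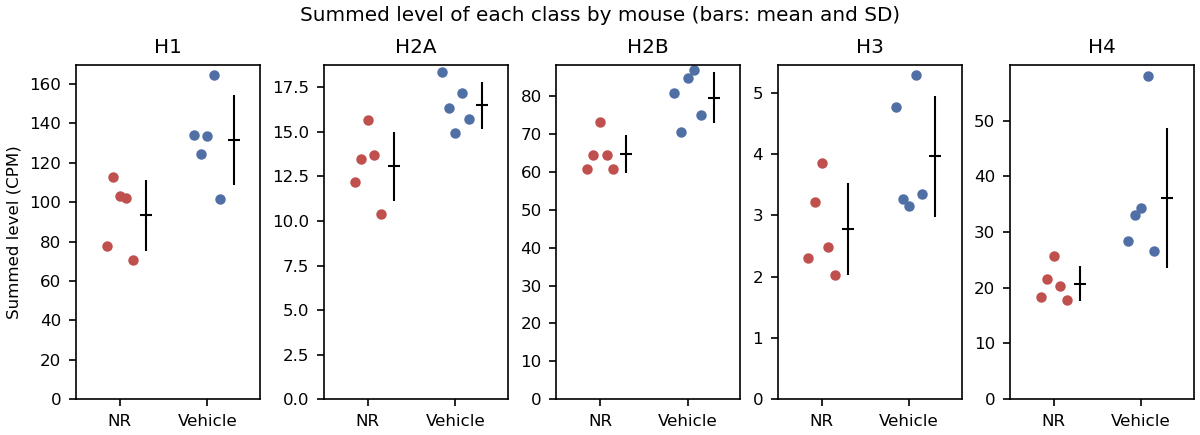
Summed level in CPM of the members of each histone class in each mouse, with a bar for the mean and SD of each group (n = 5). The groups are separated for H4, where NR-treated mice reach 25.6 CPM and non-treated mice start at 26.7 CPM, and overlap for the other classes.

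Hist1h4i (chr13:22040636-22041362, minus strand), the most abundant H4 gene, was at 10.7, 13.8, 14.7, 12.5, and 11.1 CPM in NR-treated mice 1 to 5, and at 18.1, 24.2, 20.4, 32.6, and 16.1 CPM in non-treated mice 1 to 5. The groups did not overlap. Its log2 fold change was -0.83 ± 0.18, with the smallest p among the members in edgeR (adjusted p = 0.370, exact permutation p = 0.00794). The call held in all 10 fits that left out 1 mouse.

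Hist1h4h (chr13:23531050-23531519) was at 4.33, 4.87, 6.31, 4.41, and 4.34 CPM in NR-treated mice 1 to 5, and at 5.40, 6.14, 9.62, 17.4, and 6.73 CPM in non-treated mice 1 to 5. Its log2 fold change of -0.90 ± 0.30 (adjusted p = 0.440 in edgeR, exact permutation p = 0.0238) became -0.52 without Vehicle 4. Hist2h4 was at 0.882 ± 0.301 against 1.14 ± 0.588 CPM and did not pass the threshold (log2 fold change -0.37 ± 0.40, adjusted p = 0.775 in edgeR, exact permutation p = 0.714). Hist4h4, the gene of the fourth locus, had 49 reads and lay below the filter, at 0.218 CPM in NR-treated and 0.227 CPM in non-treated mice.

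**Figure D4:**
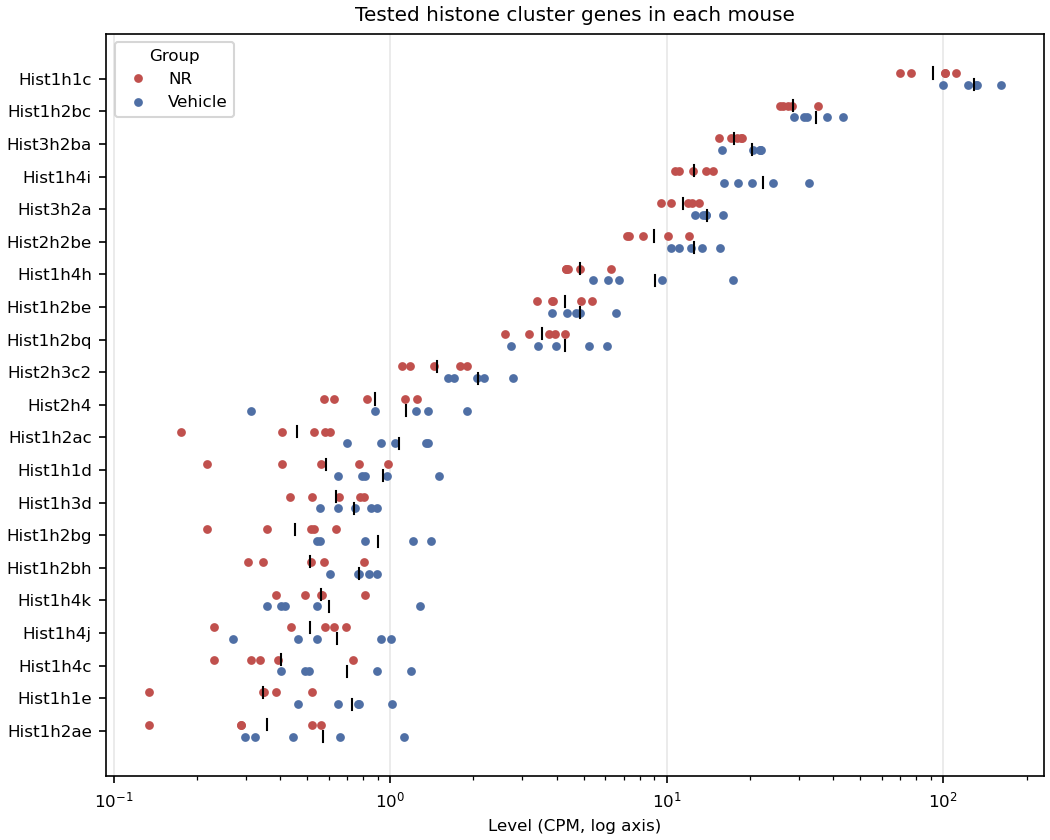
Level in CPM (log axis) of each of the 21 tested members in each mouse, NR-treated in red and non-treated in blue, with a black bar for the group mean. The group mean is lower in NR-treated mice for all 21 genes, and the points of the groups are separated for Hist1h4i and Hist1h2ac.

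By cluster, the summed level differed by a log2 ratio of -0.50 for Hist1, -0.46 for Hist2, and -0.24 for Hist3. Hist1 was at 154 ± 22.6 CPM in NR-treated and 217 ± 42.4 CPM in non-treated mice. Hist2 was at 11.6 ± 2.18 and 15.9 ± 2.35 CPM, and Hist3 at 29.0 ± 2.52 and 34.3 ± 2.92 CPM. The groups overlapped in each cluster taken alone, and these differences were described without a test.

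The 38 members with reads that the filter left out were examined in a second fit, of the 33224 genes that had any read. Of these, 24 were lower and 14 higher, and 4 were lower and 0 higher at an unadjusted p of 0.05 or less, where 3.21% of all genes were lower and 4.26% higher. The 4, named after their values were seen, were Hist1h2bp, Hist1h3f, Hist1h3h, and Hist1h3b, with 32, 75, 9, and 5 reads. Hist1h2bp had 1 to 2 reads in each NR-treated mouse and 3 to 8 in each non-treated mouse, and its log2 fold change was -1.93 ± 0.51 (adjusted p = 0.494 in edgeR). With so few reads the sizes of these changes are poorly determined.

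Promoters of 62 of the 67 members were matched in RefSeq (GRCm38.p6), each 250 bases before to 50 after the start. The letters CCAAT, on either strand, were present in 53 of them against 37.9% of 27025 promoters of all genes. All 50 matched H1, H2A, H2B, and H3 promoters held it, split as 6, 18, 16, and 10, while 3 of 12 H4 promoters did. The octamer ATTTGCAT was found in 7 H2A and 6 H2B promoters and in no other class, against 1.75% of all promoters. The H1 box AAACACA was found in 9 members, against 7.14%, namely 5 of 6 H1, 2 of 18 H2A and 2 of 16 H2B. TATAAA was found in 35 members, against 14.2%. These were 4 of 6 H1, 11 of 18 H2A, 8 of 16 H2B, 4 of 10 H3 and 8 of 12 H4 promoters. Overlap between the motifs was not removed, and a match is a description of the letters.

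As examples, the 120 bases before the RefSeq start are given for 3 members whose results are described above. Matches to these motifs are in capitals. A single promoter does not stand for its class. They are Hist1h1c at chr13:23738687-23738806, Hist1h2ac at chr13:23683960-23684079 (minus strand), and Hist1h4i at chr13:22041363-22041482 (minus strand).
Hist1h1c: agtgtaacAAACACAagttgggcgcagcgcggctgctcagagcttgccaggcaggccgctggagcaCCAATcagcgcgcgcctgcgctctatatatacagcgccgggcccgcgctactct
Hist1h2ac: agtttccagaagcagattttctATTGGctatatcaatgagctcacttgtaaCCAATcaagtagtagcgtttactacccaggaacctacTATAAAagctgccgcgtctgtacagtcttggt
Hist1h4i: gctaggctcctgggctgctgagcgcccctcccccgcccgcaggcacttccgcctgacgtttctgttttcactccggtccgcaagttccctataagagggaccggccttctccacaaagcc
Hist1h1c holds the H1 box and CCAAT, Hist1h2ac holds CCAAT on both strands and TATAAA, and Hist1h4i holds none of the 4 in this stretch. Members with and without these letters were among those lower in NR-treated mice.

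Genes that act on histone mRNA were given as counts, beside which 4.88% of all tested genes were lower at the threshold. Of 7 regulators of histone gene transcription, all had a negative log2 fold change and 2 were lower at the threshold. These were Npat, the cyclin E/CDK2 substrate that activates histone genes, at 20.02 ± 1.13 against 22.9 ± 1.97 CPM (log2 fold change -0.19 ± 0.08, adjusted p = 0.476 in edgeR), and Pou2f1, which encodes the octamer-binding factor Oct-1 (-0.16 ± 0.07, adjusted p = 0.499 in edgeR). Of 12 genes for the 3′ end processing of histone mRNA, 0 passed the threshold in either direction. Slbp, whose protein binds the stem-loop, was at 45.6 ± 3.66 against 56.5 ± 18.1 CPM (log2 fold change -0.31 ± 0.19, adjusted p = 0.627 in edgeR).

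Of 4 genes for the decay of histone mRNA, only Upf1, the helicase that SLBP recruits, was lower at the threshold (-0.15 ± 0.06, adjusted p = 0.476 in edgeR), and the exonuclease gene Eri1 did not pass it (adjusted p = 0.646 in edgeR). Of 13 histone chaperone genes, 2 were lower, Ubn1 and Atrx, both with a log2 fold change of -0.14. None of the genes in these lists passed an adjusted p of 0.05.

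Replacement histone genes had a median log2 fold change nearer to 0. Of 11 tested, 9 had a negative log2 fold change, 0 passed the threshold in either direction, and the median was -0.06, against -0.48 for the cluster genes. Their summed level was 1257 ± 39.5 CPM in NR-treated and 1322 ± 153 CPM in non-treated mice, and the groups overlapped. H3f3b, the most abundant, had a log2 fold change of -0.02 ± 0.09 and H1f0 of -0.06 ± 0.10 (adjusted p = 0.953 and adjusted p = 0.859 in edgeR). The difference between the lists was not tested.

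Proliferation genes also had lower mean levels in NR-treated mice, and their order of the mice matched that of the histone genes only in part. All 21 S phase genes and all 22 G2 and M phase genes had a negative log2 fold change, with medians of -0.31 and -0.36. At the threshold 0 and 1 of them (Cenpf) were lower, against 4.88% of all tested genes. Mki67, which marks cycling cells, was at 149 ± 23.6 against 206 ± 103 CPM (adjusted p = 0.625 in edgeR), and Top2a at 65.4 ± 15.2 against 85.9 ± 36.3 CPM (adjusted p = 0.656 in edgeR). Vehicle 4, with the highest histone sum at 332 CPM, had the lowest sum of the S phase genes, 515 CPM, and of the G2 and M phase genes, 416 CPM. NR 5, with the lowest histone sum at 162 CPM, had the third highest of both, 915 and 816 CPM. Ranked from the highest, only Vehicle 2, NR 2 and NR 4 held the same place, 4, 7 and 8, by the histone and the S phase sum. By the G2 and M phase sum these mice stood at 4, 9 and 6. Vehicle 3 stood at 2 by the histone sum and at 9 by the S phase sum. The part of proliferation in the histone difference was not tested.

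**Figure D5:**
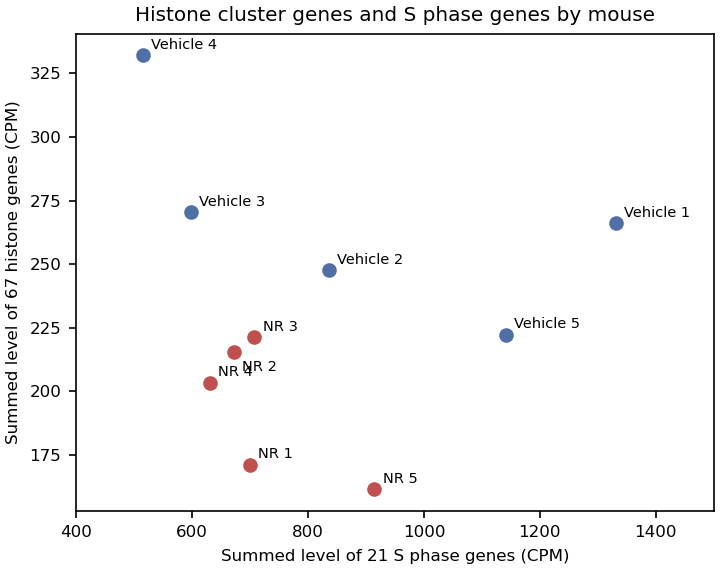
Summed level of the 67 histone genes (vertical axis, CPM, not starting at 0) against that of 21 S phase genes (horizontal axis, CPM, not starting at 0) for each mouse, NR-treated in red and non-treated in blue. Vehicle 4 has the highest histone and the lowest S phase sum, and Vehicle 1 the highest S phase sum, 1331 CPM, with a histone sum of 266 CPM.

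Genes of other cell types varied among the libraries as well, and their part in the histone difference was not tested. Over all tested genes 4.88% were lower and 4.83% higher at the threshold. All 16 erythroid genes had a negative log2 fold change with a median of -0.43 and 0 passed the threshold. Their summed level ran from 7791 to 13730 CPM in NR-treated and from 4402, in Vehicle 4, to 19003 CPM in non-treated mice. Hbb-bs and Hba-a1 made up most of this sum, with log2 fold changes of -0.09 and -0.06, so it says little about the other erythroid genes. Of 16 neutrophil genes, 15 were higher with a median of 0.41, 1 at the threshold, and of 14 B cell genes 12 were lower with a median of -0.34, 1 at the threshold. The B cell sum was 188 ± 37.1 CPM in NR-treated and 292 ± 58.3 CPM in non-treated mice, with overlap between the groups. It was highest in Vehicle 4, at 369 CPM. Most of that sum came from Ighm and Ebf1, so it says little about the other genes of the list. Ebf1 was almost level, at 78.6 ± 9.29 CPM in NR-treated and 76.1 ± 2.70 CPM in non-treated mice. The 1 called B cell gene was Ighm, the heavy chain of IgM, at 49.1 ± 15.7 against 145 ± 60.2 CPM without overlap (log2 fold change -1.56 ± 0.29, adjusted p = 0.306 in edgeR).

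The cochlear genes, read as a check of the tissue, included Coch at 2793 CPM, and of 12 such genes 4 were lower and 1 higher at the threshold, with a median of -0.52. Their sum overlapped between groups. Adipocyte genes were higher, 5 of 7 at the threshold with a median of 1.80, as were skeletal muscle genes, 6 of 8 with a median of 3.38. Beside these counts, 4.88% of all tested genes were lower and 4.83% higher at the threshold. No gene of these lists passed an adjusted p of 0.05 in edgeR. The muscle sum reached 851 and 641 CPM in NR 3 and NR 5 and was 75.9 CPM or less in the other 8 mice. Without NR 3 and NR 5, where 23 members passed the filter, 9 were lower at the threshold, since Hist2h2be no longer passed and Hist1h4c did. Vehicle 3 and Vehicle 4 have the lowest S phase sums of the non-treated mice and also the highest histone sums, 270.5 and 332 CPM. Leaving them out therefore also lowers the non-treated histone mean. Without them, 5 of 22 members were lower at the threshold. Hist1h1c, Hist1h2bc, Hist1h4h, Hist1h2bg, and Hist1h1e no longer passed and Hist3h2ba did.

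RNAs that lack a poly(A) tail gave few reads. Of 14 in the files, 5 were at 0 in every library, and their sum was 8.69 CPM in NR 3 and between 1.52 and 2.597 CPM in the other 9 mice. In NR 3, Rn7sk alone gave 7.82 CPM of that sum, so the high value was that of 1 RNA and not of the list. The histone sum of NR 3, 221 CPM, was the highest of its group, and a link between the 2 was not tested.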

How the data were processed

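Cochlear RNA from 5 NR-treated and 5 non-treated mice had been sequenced after poly(A) selection, and the values the authors deposited are raw read counts per gene, 1 mouse a file, with no normalization. The submitters' processing notes name fastp, STAR 2.6.1d, featureCounts 1.5.0 and DESeq2 1.26.0, and the methods give mm10 and the default, unstranded counting mode. Gene lengths, also deposited, served for levels per kilobase. The annotation release is not given in the sources used here, and all 67 members had the same coordinates in GENCODE M21.

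Counts were fitted over all genes with edgeR 4.0.16 in R 4.3.3 (TMM, filterByExpr, glmQLFit and glmQLFTest, no covariate, Benjamini-Hochberg adjustment over 18329 genes). DESeq2 1.42.0 was an alternative, and the scripts were tested on simulated data. Named members are those with an unadjusted p of 0.05 or less, the most abundant of each class and cluster, the tested ones of the small clusters, and those whose groups do not overlap, and others are named to describe a pattern. Exact permutation tests compared mean log2 CPM over all labelings of the mice, two-sided, and were added after the edgeR results were seen. The alternatives without pairs of mice were also chosen after seeing the data. The members, lists and rules were chosen with earlier results of these data known. No 2 libraries agreed within sampling noise.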

Additional observations from a re-analysis of the deposited data

Results flagged for a closer look

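In 5 of 62 groups of 5 mice examined (8.06%), 1 mouse lay far from the other 4 by Dixon's test at the 95% level, which chance gives in about 1 group in 20. Vehicle 4 accounts for 3 of them. Its summed H4 level was 57.9 CPM, where the next highest non-treated mouse was at 34.3 CPM. Its Hist1h4k level was 1.28 CPM, with the next at 0.545 CPM, and its Hist3h2ba level was 15.9 CPM, below the next at 20.5 CPM, so the mouse was not high for every member. NR 3 accounts for the others, at 35.2 CPM for Hist1h2bc, with the next NR-treated mouse at 28.3 CPM, and at 6.31 CPM for Hist1h4h, with the next at 4.87 CPM.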

How the results depend on the processing

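The count of members lower in NR-treated mice was 9 of 21 tested, and between 7 and 11 of 21 or 22 when 1 mouse was left out. It was 9 with the size factors of DESeq2 and with robust dispersions, and 7 with the replicate block, each of 21. Other settings tested other numbers of members, with 6 of 11 lower under a stricter filter, 13 of 59 with no filter and 11 of 59 in DESeq2. The count higher was 0 in each of these. The median log2 fold change of -0.48 lay between -0.55 and -0.40 with 1 mouse left out, and the log2 ratio of the summed level, -0.46, between -0.52 and -0.37. Without Vehicle 3 and Vehicle 4, an alternative chosen after seeing the data, 5 of 22 members were lower, and Hist1h2bq (0.077), Hist2h4 (0.14), Hist1h4k (0.35) and Hist1h4j (0.29) changed sign. Hist1h4k, at -0.10, also changed sign without NR 1 (0.016) and without Vehicle 4 (0.38), within a range of -0.24 to 0.38 with 1 mouse left out. None of these was a called gene, and the cause was not tested. Among members left out by the filter, the 4 lower became 2 with the replicate block and 2 in DESeq2, and lay between 2 and 6 with 1 mouse left out, while the 0 higher lay between 0 and 2. Same-numbered mice did not deviate together (correlations of 0.17, -0.12, -0.22, 0.016 and 0.13), so the numbers do not pair the samples. Most members rest on fewer than 200 reads over 10 libraries, which limits their precision.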

Other observations

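Hist1h2al, annotated as a processed pseudogene and therefore no member, had more reads than many H2A members and fell into 2 levels across the mice. It was at 193, 222 and 115 reads in NR 1, NR 2 and NR 5 and at 170 and 187 in Vehicle 1 and Vehicle 5. It was at 24 and 19 reads in NR 3 and NR 4 and at 24, 38 and 40 in Vehicle 2, Vehicle 3 and Vehicle 4. Both levels occur in both groups, and the cause was not tested.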
